A study of Mus musculus with 2 samples.

Results

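Genes read as markers of recent activation in T cells were followed across a remimazolam time course in mouse spleen: the transcription factors Egr1, Egr2, Egr3, Nr4a1, Nr4a2 and Nr4a3, the Egr co-repressor Nab2 and the surface receptor Cd69. They were chosen by name, and all 8 members were found among the 19837 genes of the expression table. For each, the molecules in single cells were used to give the share of cells with at least 1 molecule (positive cells), the molecules per positive cell, the level in a pool of cells, and the detection of members together in the same cell.

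The cells came from spleens of female mice (C57BL/6, with the strain given as C57/BL6N), in 3 groups of 3 mice. One group received saline, and the others 6 mg/kg remimazolam, a short-acting benzodiazepine, with spleens taken 4 h or 8 h after injection. The labels set the saline group at 0 h, and no saline group of 4 h or 8 h was analysed here. Each group formed a single pool of 3 animals marked by 1 sample tag, and the 3 pools shared 1 BD Rhapsody capture, which labels the RNA molecules of single cells. A difference between pools therefore has no replicate check, and no p-value is given. The labels give the sorted cells as CD45+CD3+CD5+ T cells in 1 place and as CD45+ cells in another.

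Egr1, Egr2 and Egr3 are zinc finger factors that T cells transcribe within minutes of antigen receptor signals, through ERK and calcium, and Egr2 and Egr3 are known for restraining later activation and for a part in anergy. Nr4a1 (Nur77), Nr4a2 and Nr4a3 are orphan nuclear receptors induced in the same way, widely used as reporters of receptor signal strength and linked to tolerance, exhaustion and regulatory T cells. Nab2 binds Egr proteins and represses their targets, and is itself an Egr target. CD69 is an early surface marker of activation that holds lymphocytes in tissue by removing the egress receptor S1P1.

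Sequence upstream of the start site is shown for the 3 Nr4a genes and Egr2. They are the members with a promoter entry used here and bases left to show. Except for Nr4a2 with Egr2, they were found in the same cells by the count given below. Egr1, Egr3 and Cd69 met that count with Egr2, Nr4a1 and Nr4a3 as well. Both families are also known targets of factors that bind cyclic AMP response elements and serum response elements. Entries of the RefSeq promoter table (build GRCm38.p6) were used for 5 of the 8 members, and none for Egr1, Egr3 and Cd69. Each run reads 5′ to 3′ along the gene's strand and stops at annotated exons. Capitals mark the cyclic AMP response half-site TGACG, searched on both strands (CGTCA on the other), and the core of the serum response element.

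Nr4a1 (chr15:101266596-101266845, plus strand): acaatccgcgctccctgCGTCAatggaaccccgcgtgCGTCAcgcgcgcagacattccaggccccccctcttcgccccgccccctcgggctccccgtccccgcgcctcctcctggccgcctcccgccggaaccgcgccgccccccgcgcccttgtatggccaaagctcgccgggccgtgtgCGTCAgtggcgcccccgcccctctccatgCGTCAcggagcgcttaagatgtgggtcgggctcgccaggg
Nr4a2 (chr2:57124004-57124253, minus strand): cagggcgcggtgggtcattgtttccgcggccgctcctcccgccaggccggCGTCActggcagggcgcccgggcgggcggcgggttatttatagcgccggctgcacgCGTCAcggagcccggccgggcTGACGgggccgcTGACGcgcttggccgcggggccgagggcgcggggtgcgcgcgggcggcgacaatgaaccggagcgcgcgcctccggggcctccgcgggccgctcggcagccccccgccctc
Nr4a3 (chr4:48045055-48045152, plus strand): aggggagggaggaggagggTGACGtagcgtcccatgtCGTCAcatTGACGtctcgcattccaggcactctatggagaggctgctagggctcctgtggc
Egr2 (chr10:67537619-67537868, plus strand): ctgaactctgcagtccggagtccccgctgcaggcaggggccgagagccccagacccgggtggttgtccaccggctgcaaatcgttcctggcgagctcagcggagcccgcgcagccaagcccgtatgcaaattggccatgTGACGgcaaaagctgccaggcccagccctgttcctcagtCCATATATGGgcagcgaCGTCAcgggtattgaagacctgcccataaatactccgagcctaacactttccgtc

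The half-site occurred 4 times in the 300-base window of each Nr4a gene, which runs from 250 bases before to 50 bases after the start. Of 32851 windows in the table, 20.8% held the half-site at least 1 time and 0.231% held it 4 or more times. The Egr2 window held 2 half-sites and 1 serum response element core, a motif present in 1.63% of windows. Of the Egr2 entries, the 3 that overlap here hold both motifs and the longest is shown, while those at other start sites hold no half-site. The Egr2 entry starting at chr10:67537316 does hold 1 serum response element core. For Nab2, annotated exons left 0 bases to show, and its window held 0 half-sites and 0 serum response element cores. Other motifs were searched as well and are not given here. A match describes letters only, and binding was not measured.

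Of 17299 putative cells, 16123 were called for 1 of the 3 tags and kept. T cells were gated on molecules of Cd3e, Cd3d, Cd3g, Trac or Trbc2, with fewer than 3 molecules each of B cell, neutrophil and myeloid markers, and 5124, 5225 and 5236 cells passed in the saline, 4 h and 8 h pools. CD4 cells (a Cd4 molecule and none of Cd8a or Cd8b1) numbered 1949, 1912 and 2070, with a median of 2444, 2387 and 2440 molecules per cell. CD8 cells (a Cd8a or Cd8b1 molecule and no Cd4) numbered 1999, 2076 and 1978, with medians of 2744, 2754 and 2754. The summed level of the 5 T cell markers was 6910, 6762 and 6946 CPM (molecules per 1000000 molecules of the gate) in the 3 pools, and that of the 5 B cell markers 24.5, 24.7 and 21 CPM. Summed markers of regulatory T cells were at 252, 275 and 274 CPM in saline, 4 h and 8 h, those of innate-like T cells at 72.5, 107 and 84.1 CPM, those of gamma delta T cells at 121, 149 and 108 CPM, and those of natural killer cells at 317, 360 and 334 CPM. Myeloid markers were at 99.3, 117 and 101 CPM. The part of these cells in the results was not tested.

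Egr1 was found in 12.1% (exact 95% interval 10.6 to 13.6) of saline CD4 cells, 11.0% (9.62 to 12.5) at 4 h and 12.4% (11.0 to 13.9) at 8 h. All intervals cover counting error only, and the 3 overlapped. Egr2 was found in 2.87%, 2.30% and 1.98% of CD4 cells in saline, 4 h and 8 h, and Egr3 in 3.08%, 2.67% and 2.85%. Among the Nr4a receptors, Nr4a1 was found in 4.41%, 3.29% and 3.82% and Nr4a3 in 1.898%, 2.14% and 2.13%. Nr4a2 was found in 5, 1 and 9 CD4 cells, with 12 of its 25 molecules at 8 h in 1 cell, too few to compare. Cd69 was found in 12.6%, 12.0% and 12.2%. For each of these genes the intervals of the 3 pools overlapped, so no difference in the share of positive CD4 cells was detectable at this depth.

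The share of Nab2-positive CD4 cells was 12.5% (11.1 to 14.1) in saline, 15.1% (13.5 to 16.8) at 4 h and 12.6% (11.2 to 14.1) at 8 h. Its ratio to saline at 4 h was 1.21 (1.02 to 1.44). With every cell thinned to 1500 molecules the shares were 7.98%, 9.72% and 8.30%, with overlapping intervals.

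**Figure D1:**
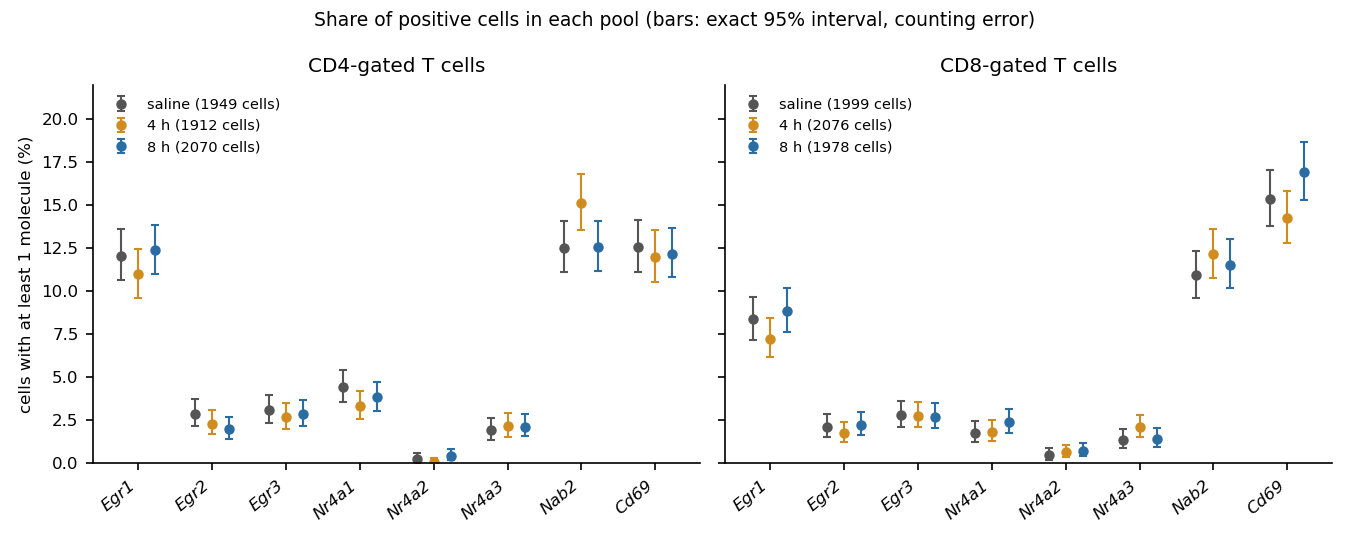
Share of cells with at least 1 molecule (vertical axis, percent) of each of the 8 genes in CD4 and CD8 T cells of the saline, 4 h and 8 h pools; points are single pools and bars exact 95% intervals. In CD4 cells Nab2 stands at 15.1% at 4 h beside 12.5% in saline, and for every gene the bars of the 3 pools overlap.

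In CD8 cells Egr1 was found in 8.35%, 7.23% and 8.85% of cells in saline, 4 h and 8 h. Egr2 was found in 2.10%, 1.73% and 2.22%, Egr3 in 2.80%, 2.75% and 2.68%, Nr4a1 in 1.75%, 1.83% and 2.38%, and Nr4a3 in 1.35%, 2.07% and 1.42%. Nr4a2 was found in 9, 13 and 14 CD8 cells. Nab2 was found in 10.9%, 12.1% and 11.5% and Cd69 in 15.4%, 14.3% and 16.9%. Here too the 3 intervals overlapped for every member.

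Levels, which also weigh how many molecules a positive cell holds, differed more than shares. The level is the sum of a gene's molecules over the gated cells of a pool, divided by all molecules of those cells and given in CPM. Ratios to saline carry exact conditional 95% counting intervals, which are too narrow for these genes, because their molecules sit in few cells and the interval treats each molecule as separate. A gene was counted as lower at a ratio of 0.8 or less and as higher at the inverse of 0.8 or more, where it had at least 50 molecules over the 3 pools. Both ratios use the same saline pool. In CD4 cells 7 members had enough molecules. At 4 h 4 of them were counted lower and 1 higher, where 14.7% of the 9627 genes with enough molecules were counted in either direction, 8.35% higher and 6.35% lower. Those counted lower were Egr1, Egr3, Nr4a1 and Nr4a3, and the one counted higher was Nab2. At 8 h 3 members were counted lower and none higher, where 14.3% of genes were counted in either direction, 7.45% higher and 6.83% lower. These were Egr2, Egr3 and Nr4a3. Many molecules of the Egr and Nr4a genes sit in few T cells, often the same ones, as given below. The genes counted are therefore not separate observations, and the share over all genes may not be a like background for them. The same limit holds for the counts in CD8 cells. Over all T cells the 4 h ratios of Egr1, Egr3, Nr4a1 and Nr4a3 were 0.838, 0.763, 0.954 and 0.986. In the same order they were 0.773, 0.921, 1.12 and 1.31 in T cells with neither Cd4 nor Cd8a or Cd8b1. Such cells can include CD4 cells whose Cd4 was missed. In T cells with both they were 1.06, 1.30, 1.95 and 5.09. At 8 h Egr2, Egr3 and Nr4a3 were at 0.698, 0.791 and 0.821 over all T cells and 0.659, 1.30 and 2.26 with neither.

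Egr1 had 184 CPM (172 to 196) in saline CD4 cells, 145 (134 to 156) at 4 h and 151 (141 to 162) at 8 h. The ratio of Egr1 to saline came to 0.787 (0.713 to 0.869) after 4 h and 0.824 (0.749 to 0.906) after 8 h, so both treated pools lay below the saline interval. Egr2 had 30.9, 25.2 and 22.9 CPM, with ratios of 0.816 (0.640 to 1.04) at 4 h and 0.743 (0.581 to 0.947) at 8 h. The Egr2 ratio at 8 h was 0.448 without the top 1% of cells of each pool.

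Egr3 had 62.4 CPM (55.7 to 69.7) in saline CD4 cells, 35.2 (30.1 to 40.8) at 4 h and 32.5 (27.9 to 37.8) at 8 h. The treated pools overlapped each other and both lay below the saline interval, with ratios of 0.564 (0.466 to 0.681) and 0.522 (0.431 to 0.630). Nr4a3 had 36.0 (31.0 to 41.7), 19.9 (16.2 to 24.3) and 19.0 CPM (15.5 to 23.1), with ratios of 0.553 (0.428 to 0.711) and 0.527 (0.409 to 0.676). The Egr3 and Nr4a3 levels were thus arranged alike over the 3 pools of CD4 cells.

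Nr4a1 had 53.5 CPM (47.3 to 60.3) in saline CD4 cells, 32.1 (27.3 to 37.6) at 4 h and 46.8 (41.2 to 53.0) at 8 h. The 4 h pool was low and the 8 h pool overlapped saline: ratios to saline came to 0.601 (0.491 to 0.734) after 4 h and 0.876 (0.734 to 1.04) after 8 h, with a ratio of 8 h to 4 h of 1.46 (1.19 to 1.79). That 4 h value became 0.925 where CD4 cells needed at least 2 Cd4 molecules. In the few CD4 cells with a Foxp3 molecule, Nr4a1 had 65, 21 and 79 molecules in saline, 4 h and 8 h. Their ratios were 0.263 (0.153 to 0.436) for 4 h to saline and 3.79 (2.32 to 6.46) for 8 h to 4 h. In CD4 cells without Foxp3 the ratios to saline were 0.701 (0.560 to 0.874) at 4 h and 0.798 (0.647 to 0.982) at 8 h. There the ratio of 8 h to 4 h was 1.14 (0.903 to 1.44), an interval that includes no difference. Nab2 had 63.4, 81.4 and 66.4 CPM, with ratios of 1.28 (1.11 to 1.49) and 1.05 (0.898 to 1.22). With each cell weighted equally the 4 h ratio of Nab2 was 1.248, just short of the fold used. Cd69 had 80.6, 67.7 and 75.2 CPM, with ratios of 0.840 (0.725 to 0.974) and 0.933 (0.811 to 1.07).

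Nab2 (chr10:127660918-127668568, minus strand, GENCODE M21) overlaps Nemp1 by 1668 bases, the antisense gene Gm16229 by 1646 bases and Stat6 by 40 bases, all on the other strand. Gm16229 had 0 molecules in CD4 cells. The sources used here do not say whether the counting used strand, so reads in the overlaps may belong to either gene. At 4 h the ratio of Nemp1 in CD4 cells was 1.21 (0.835 to 1.76), that of Stat6 0.938 (0.849 to 1.03), and that of the related co-repressor Nab1 1.12 (0.978 to 1.27). The other 7 members overlap no annotated gene.

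**Figure D2:**
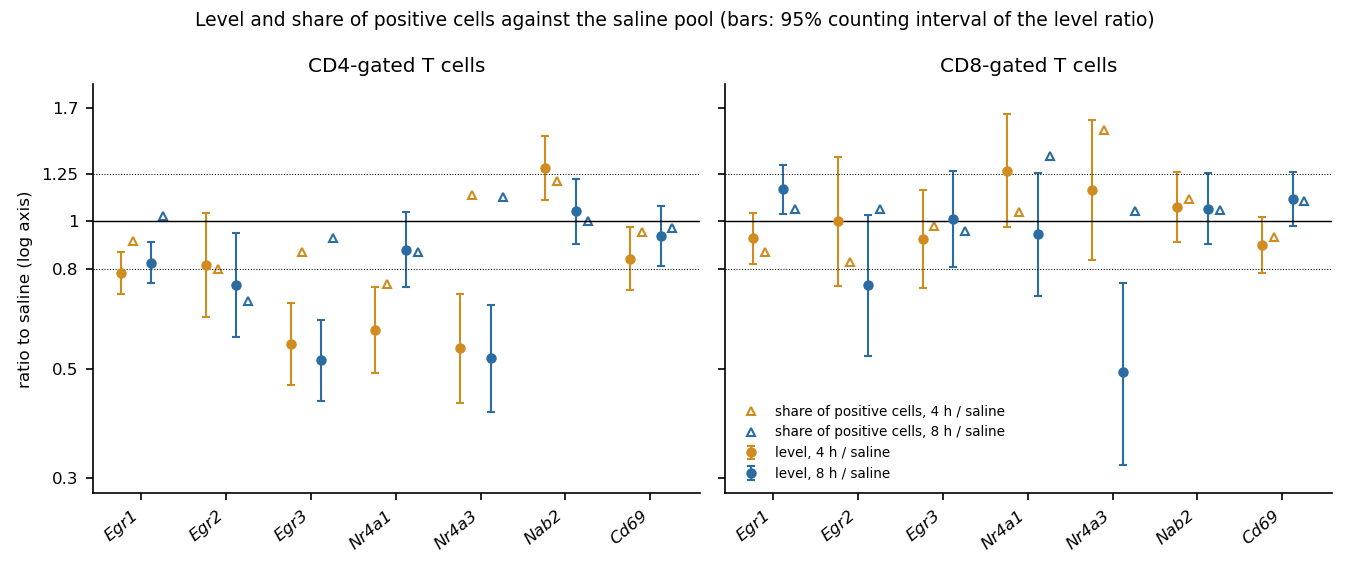
Ratios to the saline pool on a log axis for 7 of the members in CD4 and CD8 T cells at 4 h and 8 h; filled points are levels with 95% counting intervals, open triangles are shares of positive cells, and dotted lines mark 0.8 and its inverse. For Egr3 and Nr4a3 in CD4 cells the levels lie between 0.522 and 0.564 while the shares lie between 0.866 and 1.13.

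The lower levels of Egr3 and Nr4a3 in treated CD4 cells lay in the molecules per positive cell. Egr3-positive CD4 cells held 5.25 molecules on average in saline, 3.39 at 4 h and 2.93 at 8 h. In saline 11 CD4 cells held 10 or more Egr3 molecules, beside 1 at 4 h and 2 at 8 h. The 5 highest cells held 23, 22, 21, 21 and 17 molecules in saline and 10, 9, 7, 7 and 7 at 4 h. At 8 h they held 44, 11, 9, 7 and 5, so 1 cell gave 25.4% of the 173 molecules of that pool. Without the highest cell of each pool the 8 h ratio was 0.420.

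Nr4a3-positive CD4 cells held 4.92 molecules on average in saline, 2.39 at 4 h and 2.30 at 8 h, although 37, 41 and 44 cells were positive. The 5 highest held 35, 23, 22, 10 and 9 molecules in saline, 12, 10, 9, 5 and 5 at 4 h, and 12, 12, 9, 8 and 7 at 8 h. The top 1% of CD4 cells of each pool (19, 19 and 21 cells) held 88.5%, 77.6% and 77.2% of the Nr4a3 molecules, and without them the Nr4a3 ratios were 1.08 at 4 h and 1.04 at 8 h. With CD4 cells gated on 2 molecules of Cd4 the 8 h ratio was 0.822. Egr3 kept its direction without the top 1% of cells, with a ratio of 0.684 at 4 h. Nr4a1-positive cells held 3.14, 2.51 and 3.15 molecules and Egr1-positive cells 3.95, 3.39 and 3.15, while Nab2 and Cd69 held between 1.31 and 1.66 molecules per positive CD4 cell in all 3 pools.

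**Figure D3:**
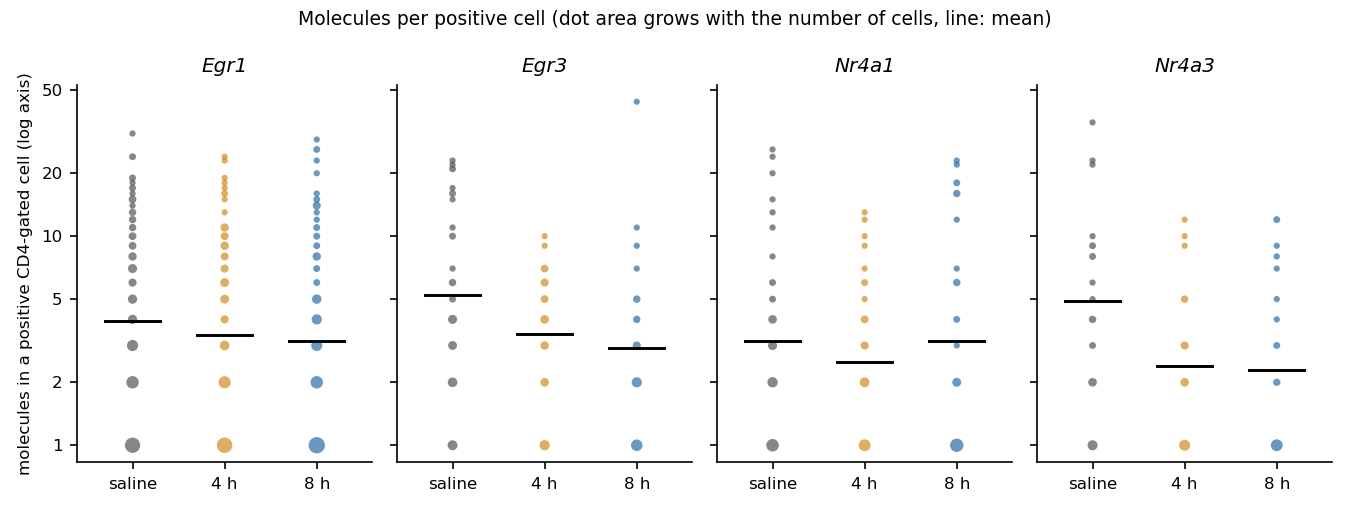
Molecules (log axis) in each positive CD4 T cell of the saline, 4 h and 8 h pools for Egr1, Egr3, Nr4a1 and Nr4a3; dot area grows with the number of cells at that count, and lines are means over positive cells. Saline cells reach 23 molecules of Egr3 and 35 of Nr4a3, while at 4 h the highest cells hold 10 and 12, and 1 cell at 8 h holds 44 molecules of Egr3.

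In CD8 cells all 8 members had enough molecules, and the arrangement over pools differed. At 4 h 2 members were counted higher and none lower, where 12.9% of 9638 genes were counted in either direction, 7.72% higher and 5.19% lower. At 8 h 2 were counted lower and none higher, where 13.7% were counted in either direction, 7.21% higher and 6.52% lower. Those higher at 4 h were Nr4a1 and Nr4a2, and those lower at 8 h were Egr2 and Nr4a3.

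Egr1 had 98.4, 90.9 and 114 CPM in CD8 cells of saline, 4 h and 8 h, with ratios to saline of 0.924 (0.820 to 1.04) and 1.16 (1.04 to 1.30). The top 1% of CD8 cells held 38.3%, 57.6% and 45.9% of the Egr1 molecules in the 3 pools. The highest cells at 4 h held 50 and 37 molecules, so the 4 h level rests on few cells. Egr2 had 15.3, 15.3 and 11.3 CPM, and its ratio at 8 h was 0.742 (0.531 to 1.03). Without the top 1% of cells the Egr2 ratio at 8 h was 1.09. Egr3 had 27.3, 25.1 and 27.6 CPM, with ratios of 0.921 (0.733 to 1.16) and 1.01 (0.809 to 1.27), so the lower Egr3 level of treated CD4 cells was not seen in CD8 cells. That difference between CD4 and CD8 cells was not tested.

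Nr4a1 had 17.5, 22.2 and 16.5 CPM in CD8 cells, with a ratio of 1.27 (0.972 to 1.66) at 4 h. At 8 h the ratio was 0.942 (0.705 to 1.26). Gating CD8 cells on at least 2 molecules of Cd8a and Cd8b1 together gave a 4 h ratio of 2.27. The highest CD8 cell held 26 of 102 Nr4a1 molecules in saline, 17 of 135 at 4 h and 13 of 96 at 8 h. The top 1% of CD8 cells held 85.3%, 87.4% and 71.9%, so these ratios rest on few cells. Nr4a3 had 12.2, 14.1 and 6.00 CPM, with a ratio of 1.16 (0.837 to 1.61) at 4 h and 0.493 (0.319 to 0.749) at 8 h. The highest CD8 cell held 17, 10 and 3 molecules of Nr4a3 in the 3 pools, and without the top 1% of cells the 8 h ratio was 1.14; with the gate on 2 molecules it was 0.784. Nr4a2 had 2.91, 4.10 and 3.602 CPM, from 17, 25 and 21 molecules, with a ratio of 1.41 (0.730 to 2.78) at 4 h. Nab2 (48.2, 51.5 and 51.1 CPM) and Cd69 (79.7, 71.4 and 88.7 CPM) stayed within the fold used.

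CD4 and CD8 cells of the same pool differed in several members. The level of Egr1 was 1.87 (1.68 to 2.08) times as high in CD4 as in CD8 cells in saline, 1.59 at 4 h and 1.32 (1.19 to 1.47) at 8 h. For Nr4a1 the ratio of CD4 to CD8 was 3.06 (2.43 to 3.88), 1.45 (1.15 to 1.84) and 2.84 (2.24 to 3.64), lowest at 4 h. For Egr3 it was 2.29 (1.88 to 2.79), 1.401 (1.12 to 1.75) and 1.18 (0.945 to 1.47). In shares of positive cells the Egr3 ratio of CD4 to CD8 was 1.10 (0.751 to 1.61) in saline, 0.9715 at 4 h and 1.06 at 8 h. The Egr3 difference thus lay in molecules per positive cell. The share of Cd69-positive cells was lower in CD4 than in CD8 cells, with ratios of 0.819 (0.689 to 0.971), 0.840 (0.704 to 1.00) and 0.719 (0.608 to 0.849). CD8 cells held more molecules per cell than CD4 cells, and over thinned cells Cd69 was found in 9.23%, 8.57% and 9.12% of CD4 and 8.80%, 7.81% and 9.53% of CD8 cells, so the Cd69 difference in shares was not seen at equal depth. Thinned shares of Nr4a1 were 3.42%, 2.14% and 2.25% in CD4 cells and 0.984%, 1.34% and 1.78% in CD8 cells. Their intervals were apart in saline (2.64 to 4.36 in CD4 and 0.593 to 1.53 in CD8 cells). They overlapped at 4 h (1.53 to 2.92 and 0.888 to 1.95) and at 8 h (1.64 to 3.01 and 1.24 to 2.48).

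Within CD4 cells, those with a Foxp3 molecule (135, 149 and 160 cells), the factor of regulatory T cells, differed from those without in Nr4a1. Shares of positive cells were 11.1%, 8.05% and 13.1% with Foxp3 and 3.91%, 2.89% and 3.04% without, and the ratio of shares was 2.84 (1.51 to 5.003), 2.78 (1.35 to 5.29) and 4.32 (2.49 to 7.23). For Egr2 these ratios were 2.24 (0.915 to 4.78), 3.94 (1.80 to 8.00) and 3.85 (1.68 to 8.06). Thinned, Nr4a1 was found in 9.60% (5.06 to 16.2), 3.55% (1.16 to 8.08) and 8.72% (4.73 to 14.5) of CD4 cells with Foxp3 and in 2.97% (2.22 to 3.89), 2.02% (1.41 to 2.82) and 1.72% (1.17 to 2.43) of those without. The thinned intervals were apart in saline and at 8 h and overlapped at 4 h, while for Egr2 they overlapped in saline and at 8 h and were just apart at 4 h (2.48 to 10.9 with Foxp3, 1.16 to 2.47 without). Median molecules per cell were close, at 2475, 2429 and 2412 with Foxp3 and 2442, 2386 and 2440 without. Cells carrying Foxp3 in this way are those where the molecule was captured, so the rest are not free of regulatory T cells.

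Over the 3 pools together, Nr4a1 shares of 6 subset gates ran in this order: CD4 cells with Foxp3 (10.8%, 8.08 to 14.1), cells with the gamma delta receptor gene Trdc (6.22%, 4.59 to 8.21), cells with Zbtb16 or Klrb1c, genes of innate-like T cells (3.38%, 1.701 to 5.97), CD4 cells without Foxp3 (3.28%, 2.83 to 3.79), CD8 cells with the effector chemokine gene Ccl5 (2.35%, 1.42 to 3.65), and CD8 cells without it (1.93%, 1.57 to 2.33). Each neighbouring pair in that order overlapped, while CD4 cells with Foxp3 lay above all 4 gates from the third on. Gates on Trdc, Zbtb16 or Klrb1c can share cells with the others. Cd69 was found in 22.8% (19.9 to 25.9) of CD8 cells with Ccl5, which were deeper, at medians of 3442 to 3526 molecules, than CD8 cells without it (14.4%, 13.4 to 15.3). Thinned shares of Cd69 were 11.9%, 7.35% and 10.3% in CD8 cells with Ccl5 and 8.34%, 7.89% and 9.41% in those without, with overlapping intervals in each pool.

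B cells, gated on at least 3 molecules of B cell markers and none of Cd3e, Cd3d or Cd3g (111, 141 and 138 cells), gave a view of the members outside T cells. None of the members is known to be absent from B cells, so these shares are a comparison and not a pure background. Nr4a3 was found in 0, 1 and 2 B cells, and over the pools in 0.769% (0.159 to 2.23) of B cells beside 2.01% (1.79 to 2.24) of T cells. Median depth over the pools was 2050 to 2399 molecules in B cells and 2514 to 2536 in T cells. Egr3 was found in 9.91%, 14.9% and 11.6% of B cells, which was 3.25 (1.59 to 5.99), 5.64 (3.38 to 8.96) and 4.22 (2.35 to 7.08) times its share in T cells, while the ratio for Egr1 was 0.683 (0.293 to 1.36), 0.766 and 0.807. Egr3 and Egr1 thus stood in different proportions in B and T cells of the same capture.

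The members were found together in the same T cells. After thinning, 65.1% (55.2 to 74.1) of saline Egr3-positive T cells also had Egr1, beside 6.48% of cells without Egr3. At 4 h and 8 h the shares were 62.6% beside 6.03% and 54.7% beside 7.17%. Nr4a1 was found in 39.6%, 49.5% and 34.7% of Egr3-positive cells and in 1.66%, 1.15% and 1.63% of the rest. Nr4a3 was found in 22.6%, 28.0% and 23.2% of Egr3-positive cells and in 0.736%, 0.844% and 0.865% of the rest. For 24 of the 28 pairs, among them 13 of the 15 pairs of factors, the intervals of the cells with and without the partner did not overlap in any pool, whichever gene was taken as partner. The same held for 0.283% of 68312 pairs of a member with a gene that is no member and is found in at least 1% of T cells. The 4 other pairs of members were Nr4a2 with Egr1, Egr2 and Cd69, and Nab2 with Cd69.

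Egr1 was found in 86.2% (77.5 to 92.4) of Egr2-positive cells in saline, 78.2% (68.0 to 86.3) at 4 h and 68.3% (55.3 to 79.4) at 8 h. Egr2 was found in 21.5% (17.4 to 26.0), 18.9% (15.0 to 23.3) and 10.8% (7.89 to 14.2) of Egr1-positive cells, and the 8 h interval lay below both others. Without thinning these shares were 21.3% (17.9 to 24.95), 20.04% (16.6 to 23.9) and 15.1% (12.2 to 18.3), in the same order, with the interval at 8 h overlapping the others. Nab2 was found in 40.6%, 33.6% and 37.9% of Egr3-positive cells beside 6.94%, 8.01% and 7.29% of the rest, and Cd69 in 47.2%, 37.4% and 29.5% beside 8.16%, 7.78% and 9.12%.

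**Figure D4:**
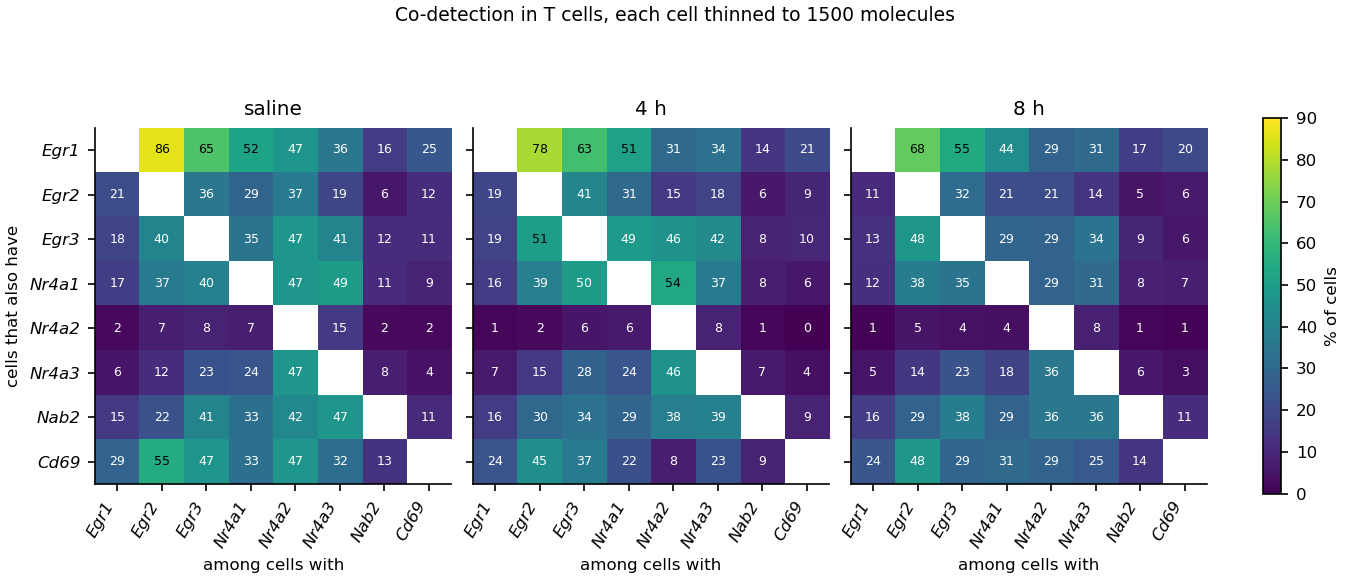
Share of T cells (colour and printed percent) that have the gene of the row among cells that have the gene of the column, per pool, with each cell thinned to 1500 molecules. Egr1 is found in 86.2%, 78.2% and 68.3% of Egr2-positive cells in saline, 4 h and 8 h.

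Cells with at least 3 of the 6 factor genes made up 2.19% (1.80 to 2.62) of T cells in saline, 1.88% (1.53 to 2.28) at 4 h and 1.7% (1.37 to 2.09) at 8 h. They are a range of a per-cell count, not a cell type, and 14.1%, 12.9% and 15.2% of T cells had at least 1 factor gene. In CD4 cells the share was 2.72% (2.04 to 3.54), 2.14% (1.54 to 2.90) and 1.88% (1.34 to 2.57), with ratios to saline of 0.789 (0.511 to 1.21) and 0.693 (0.446 to 1.07). Thinned, it was 2.12% (1.51 to 2.88), 1.702% and 0.973% (0.587 to 1.52). In CD8 cells it was 1.15%, 1.45% and 1.31%, with ratios to saline of 1.26 (0.705 to 2.26) and 1.14 (0.627 to 2.10). With at least 4 factor genes these CD8 ratios were 2.25 at 4 h and 2.19 at 8 h, from few cells and without an interval. CD8 cells with 4, 5 and 6 factor genes numbered 2, 3 and 1 in saline. They numbered 5, 6 and 3 at 4 h and 9, 4 and 0 at 8 h. The intervals of the shares with at least 3 overlapped in each gate.

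Cells with at least 3 factors were chosen by detection of the factor genes themselves, so a high share of factor molecules is partly built in. The split of Nr4a3 and Egr3 levels given below is cut on the same genes. These few cells held most of the molecules of the less frequent factors. In T cells they held 80.7%, 82.2% and 76.1% of Egr3 molecules, 73.3%, 81.9% and 71.3% of Nr4a1 molecules and 39.3%, 48.7% and 35.6% of Egr1 molecules. Of Nab2 they held 16.0%, 13.5% and 13.0%, and of Cd69 20.5%, 16.2% and 14.8%. In CD4 cells they held 88.5% of the Nr4a3 molecules of the saline pool, 48.0% at 4 h and 61.4% at 8 h. Taken as levels, CD4 cells with at least 3 factors gave 31.9, 9.56 and 11.7 CPM of Nr4a3, while all other CD4 cells gave 4.16, 10.4 and 7.34 CPM. For Egr3 the same split gave 53.9, 28.3 and 24.8 CPM beside 8.52, 6.91 and 7.71 CPM. Cells with exactly 1 factor gene had Egr1 in 68.1%, 66.6% and 67.0% of cases.

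In the cells with at least 3 factors, thinned to equal depth (75, 77 and 49 cells), Nab2 was found in 30 of 75, 31 of 77 and 24 of 49 cells, beside 6.49%, 7.56% and 6.69% of cells with none of the 6. Cd69 was found in 56.0%, 44.2% and 53.1%, beside 7.18%, 7.11% and 7.96%. From lists of related genes, a gene is counted here where the intervals of the 2 kinds of cells did not overlap in any of the 3 pools. Over all 19831 genes but the 6 factors, 0.272% were so counted as higher and 0.0555% as lower, and over the 8541 of them found in at least 1% of T cells, 0.574% and 0.129%. The lists were chosen with earlier results of these data known. Of 20 other immediate early factors 6 were higher (Fos, Fosb, Fosl2, Junb, Ier2 and Myc) and 1 lower (Klf2). Fosb was found in 5.33%, 11.7% and 10.2% beside 0.207%, 0.201% and 0.319%. Klf2, a quiescence factor known to be shut off on activation, was found in 22.7%, 19.5% and 12.2% beside 52.8%, 52.5% and 53.1%.

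Of 19 genes of ERK and calcium feedback 5 were higher: the ERK phosphatases Dusp2 and Dusp5, the receptor signalling inhibitor Spry1, the factor Nfatc1 and Tagap. Dusp2 was found in 82.7%, 84.4% and 69.4% of cells beside 33.4%, 30.1% and 29.6%. Of 21 cytokine and surface genes known as targets of T cell receptor signals 9 were higher (Tnf, Tnfrsf4, Icos, Cd200, Cd83, Nfkbid, Nfkbiz, Irf8 and Rel). Nfkbid, a nuclear NF-kappa-B regulator, was found in 57.3%, 55.8% and 57.1% beside 6.86%, 6.31% and 6.71%, and Tnf in 28.0%, 19.5% and 28.6% beside 2.04%, 2.59% and 2.68%. Of 19 genes linked to restraint of activation by Egr and Nr4a factors 2 were higher, Ctla4 and Ikzf2, which are also 2 of the 5 markers of regulatory T cells, and the cell cycle inhibitor gene Cdkn1b was lower, at 24.0%, 28.6% and 28.6% beside 47.4%, 48.3% and 47.9%. Over genes found in at least 1% of T cells alone, the higher counts were 5 of 12 other immediate early factors, 4 of 14 genes of ERK and calcium feedback, 8 of 13 cytokine and surface genes and 2 of 15 genes of restraint. Cblb, Dgka and Dgkz, which damp receptor signals, were in neither count. None of the 5 T cell markers and none of the 5 B cell markers was counted, which is partly built in because the T cell gate is set on these markers.

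Other values moved with the factor genes. Of 14 genes of heat shock and tissue dissociation, 1 was higher in all 3 pools (Zfp36, 69.3%, 64.9% and 71.4% beside 35.0%, 34.8% and 35.7%), and the summed level of the list was 7739, 8109 and 7710 CPM in cells with at least 3 factors, 5275, 5687 and 5577 CPM with 1 or 2, and 4565, 4458 and 4576 CPM with none. Dissociation of spleen can itself induce immediate early genes, and its part was not tested. Summed over all CD4 cells the members of this list were close to saline, with none past the fold at 4 h and 1 lower at 8 h. The median mitochondrial share was 8.80%, 8.51% and 8.62% of molecules with at least 3 factors and 9.84%, 9.80% and 10.0% with none. Without thinning, Foxp3 was found in 12.5%, 11.2% and 16.9% of T cells with at least 3 factors and in 4.59%, 4.40% and 4.75% with none. Thinned, the Foxp3 intervals of these 2 kinds of cells were apart in 2 of the 3 pools, so Foxp3 was not counted as higher.

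**Figure D5:**
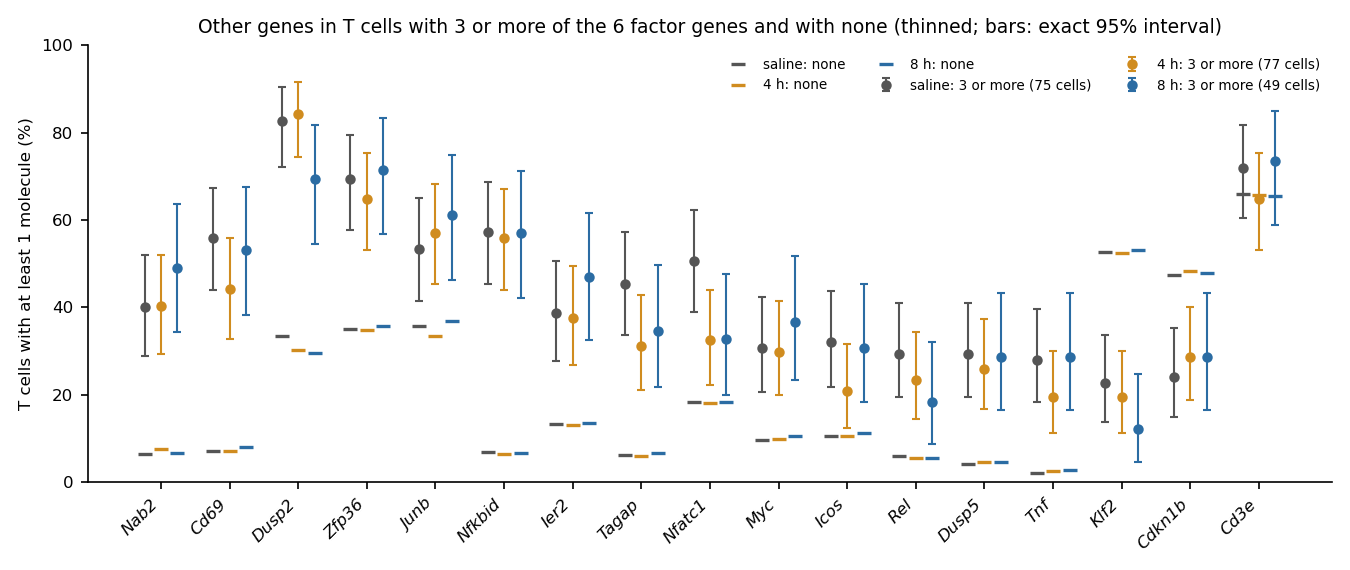
Share of T cells with at least 1 molecule of other genes (vertical axis, percent) in cells with 3 or more of the 6 factor genes (points, with exact 95% intervals) and in cells with none (dashes), per pool, thinned to 1500 molecules per cell. Nfkbid stands at 55.8% to 57.3% beside 6.31% to 6.86%, Klf2 and Cdkn1b are lower in the cells with factor genes, and the intervals of the T cell marker Cd3e hold the values of the cells with none. The genes drawn were picked from the lists after their values were seen.

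Across all 15585 T cells the genes most like a member in log-scaled molecules were other members. Of 9289 genes found in at least 1% of T cells, Nr4a1 had the highest Pearson correlation with Egr3 (r = 0.543), followed by Egr2 (0.505) and Nr4a3 (0.440). For Egr1 the first were Egr2 (0.4997), Egr3 (0.418) and Nr4a1 (0.361), and for Nr4a3 they were Nr4a1 (0.441) and Egr3 (0.440). The r of Egr3 and Nr4a1 was 0.527, 0.632 and 0.474 within the saline, 4 h and 8 h pools. The first 5 genes of each member held 6 that are not members: Nfkbid (0.276 with Egr3), Zfp36 (0.219 with Egr1), Slamf7 (0.187 with Nr4a2), Kdm6b (0.191 with Nr4a3), Id3 (0.130 with Nab2) and Tagap (0.145 with Cd69). Cells share 1 capture and differ in depth, and these values only describe the table.

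In the lists of related genes, counts of higher and lower genes in CD4 cells were close to each other at 4 h. Over all genes in CD4 cells 8.35% were higher and 6.35% lower at 4 h, and 7.45% and 6.83% at 8 h. Among 14 other immediate early factors with enough molecules, 3 were counted higher and 2 lower at 4 h, and 3 higher and none lower at 8 h in CD4 cells. Their median log2 ratio was 0.01 and 0.13, beside 0.01 and -0.00 over all genes and -0.35 and -0.28 over the members. Bhlhe40 was at 5.74, 8.75 and 11.7 CPM, with a ratio of 2.03 (1.29 to 3.27) at 8 h. Klf10 was at 8.91, 12.4 and 15.1 CPM, with a ratio of 1.69 (1.16 to 2.49) at 8 h. The abundant Junb and Jund, subunits of AP-1, had ratios of 0.924 (0.869 to 0.982) and 1.08 (1.03 to 1.12) at 4 h and 1.01 (0.957 to 1.07) and 1.17 (1.13 to 1.22) at 8 h. Fosb, with 52 molecules in all, had ratios of 1.68 (0.752 to 3.94) and 1.99 (0.930 to 4.51). Egr4, the fourth Egr gene, had 3 molecules in CD4 cells and 2 in CD8 cells.

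In the list of restraint of activation, 18 genes had enough molecules in CD4 cells. None was counted higher and 1 lower at 4 h, and 2 were higher and none lower at 8 h. The one lower was the stress gene Ndrg1, at 14.9 CPM in saline, 9.56 at 4 h and 12.0 at 8 h, with a ratio of 0.644 (0.437 to 0.939) at 4 h. Those higher at 8 h were Nt5e, which encodes the ectoenzyme CD73, at a ratio of 1.31 (1.08 to 1.605), and the inhibitory receptor gene Lag3 at 1.402 (0.780 to 2.57). Dgka, the diacylglycerol kinase that dampens receptor signals, had 1294, 1296 and 1265 CPM. Among 16 genes of ERK and calcium feedback, 3 were higher and 3 lower at 4 h and 2 higher and none lower at 8 h. The phosphatase gene Dusp2, which was found in most cells with at least 3 factors, had 360, 322 and 315 CPM, with ratios of 0.894 (0.835 to 0.956) and 0.877 (0.820 to 0.937). Spry1 was at a ratio of 1.84 (1.19 to 2.90) and Rgs1 at 1.403 (1.12 to 1.77) at 8 h.

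Among 18 cytokine and surface genes in CD4 cells, 4 were higher and 4 lower at 4 h and 5 higher and 2 lower at 8 h. Xcl1, a chemokine gene, had 4.56, 8.95 and 9.41 CPM, with ratios of 1.96 (1.16 to 3.41) and 2.06 (1.24 to 3.54), and Ifng, with 74 molecules, 2.13 (1.09 to 4.36) and 2.10 (1.09 to 4.28). In CD8 cells 5 of 17 were higher and 3 lower at 4 h, and 9 were higher and 1 lower at 8 h, with a median log2 ratio of 0.32 at 8 h beside -0.00 over all genes. Over all genes in CD8 cells 7.72% were higher and 5.19% lower at 4 h, and 7.21% and 6.52% at 8 h. At 1.5-fold 5 of the 17 were higher and 0 lower at 8 h, beside 213 and 161 of 9638 genes. The 8 h ratios were 2.20 (1.79 to 2.73) for Xcl1, 2.12 (1.45 to 3.16) for the chemokine gene Ccl4 and 2.32 (1.47 to 3.76) for Il2ra, the high-affinity interleukin 2 receptor subunit. Ccl4 was low at 4 h, with 7.03, 2.63 and 14.9 CPM in the 3 pools. Over the 9 genes of this list with at least 200 molecules the 8 h median was 0.12, with 4 higher and none lower. In CD8 cells 3 of 14 other immediate early factors were higher and none lower at 4 h, with Fosb at 3.65 (1.85 to 7.87), and 3 were higher and 1 lower at 8 h, with Fosl2 at 0.630 (0.463 to 0.851).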

How the data were processed

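Spleen T cells of saline, 4 h and 8 h mice were profiled by whole-transcriptome single-cell RNA-seq, with treatments read from the sample tags. Per the submitters' processing notes, the authors used the BD WTA Multiplex Rhapsody Analysis Pipeline 1.9.1 with GRCm38 and GENCODE M19. The deposited values are counts of molecules per cell and gene after the authors' correction of molecular identifiers, per the file headers. Reads per molecule, a ratio the authors deposited per gene, was 4.19 (Cd69) to 6.51 (Nab2) for the members.

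Cells called by the authors for 1 of 3 tags had to show at least 200 genes and less than 25% of molecules from mitochondria. The 1063 cells called as multiplets, 60 undetermined and 2 called for an unused tag were left out. Doublets within a pool were not removed and free RNA was not corrected. Gates used at least 1 molecule. Thinned cells were drawn down to 1500 molecules, which left out 263, 260 and 286 shallower T cells of the saline, 4 h and 8 h pools. Intervals are exact at 95% (Clopper-Pearson for shares, Poisson for levels, conditional binomial for ratios) and cover counting error only. In CD4 cells the limit that a count of 0 allows (3 molecules) was 0.594, 0.610 and 0.564 CPM.

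With 1 pool per group there is no replicate, and no test was made. The calculations were tested on simulated data. From each related list the genes named with a ratio between pools are the 3 with most molecules and the 3 with ratios farthest from 1 in a gate, though not all of these are printed, and for each member the 5 most correlated genes were taken among those in at least 1% of T cells. Other genes, among them those of the profile of cells with 3 factors, were named after their values were seen. Members, lists and motifs were chosen with earlier results of these data known. Gene positions are from GENCODE M21. Tools were Python 3.11.15, numpy 2.4.6, pandas 2.3.3, scipy 1.17.1, matplotlib 3.10.9, and edgeR 4.0.16 in R 4.3.3 for trimmed-mean scaling as an alternative.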

Additional observations from a re-analysis of the deposited data

Results flagged for a closer look

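The level of Nr4a1 at 4 h stood on opposite sides of saline in the 2 main gates, at a ratio of 0.601 in CD4 cells and 1.267 in CD8 cells. Each gate is 1 pool per group, and the difference between them was not tested. With gates on at least 2 molecules the ratios were 0.925 and 2.27. In saline CD8 cells of the main gate 1 cell held 25.5% of the Nr4a1 molecules.

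Cells with 3 or more factor genes also occurred among the cells that the authors called as multiplets, which enter no comparison. There they made up 2.446% (exact 95% interval 1.604 to 3.56), or 26 of 1063 cells, with a median of 4473 molecules per cell. The share in saline T cells was 2.19%.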

How the results depend on the processing

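For 30 level ratios of members to saline, 268 values came from other settings: 242 stayed within their counting interval, 22 moved out of it and 4 changed direction. Shares of positive cells stayed so in 90 of 90 values, and medians of related lists in 37 of 40, but counts within those lists in 60 of 120. With gates on at least 2 molecules, CD4 ratios at 4 h were 0.711 for Egr1, 0.925 for Nr4a1 and 0.780 for Nr4a3, and at 8 h 0.729 for Egr3 and 0.822 for Nr4a3. In CD8 cells they were 2.27 for Nr4a1 at 4 h and 0.784 for Nr4a3 at 8 h. Without the top 1% of cells, CD4 ratios were 0.684 for Egr3 and 1.08 for Nr4a3 at 4 h, and 0.448 for Egr2 and 1.04 for Nr4a3 at 8 h, while CD8 ratios at 8 h were 1.09 for Egr2 and 1.14 for Nr4a3. That setting left no Nr4a2 molecules in CD8 cells, so 2 values could not be given. Without the cell with most molecules, chosen after seeing the data, Egr3 in CD4 cells at 8 h was at 0.420. For CD8 cells with 4 or more factor genes, which are few, the ratios were 2.25 at 4 h and 2.19 at 8 h, beside 1.26 and 1.14 with 3 or more.

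Members counted higher in CD4 cells at 4 h were 0 with cells weighted equally. Those lower in CD4 cells at 8 h were 1 with gates on 2 molecules and 5 with equal weights. In CD8 cells at 4 h, 1 was higher under the strict cell filter, 1 with a tag share of at least 90% and 1 without the top 1% of cells, which also made 2 lower. In CD8 cells at 8 h, 1 was higher when thinned, 2 with gates on 2 molecules, 2 with equal weights, 1 without the top 1% and 1 without the top cell, and lower were 1 with equal weights and 0 without the top 1%. The cause was not tested. No paired analysis was possible because each treatment is 1 pool, and no replicate could be left out.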
